A study of Mus musculus with 24 samples.

Results

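Adipokines are proteins that fat cells release and that act on other tissues. The 8 genes described here encode leptin (Lep, Entrez 16846), adiponectin (Adipoq, Entrez 11450), adipsin or complement factor D (Cfd, Entrez 11537), resistin (Retn, Entrez 57264), retinol-binding protein 4 (Rbp4, Entrez 19662), angiotensinogen (Agt, Entrez 11606), apelin (Apln, Entrez 30878) and nicotinamide phosphoribosyltransferase (Nampt, Entrez 59027). They were found by gene symbol, and all 8 had a row in the table of 23017 genes. A filter on low values kept 17263 genes for testing, among them 7 of the 8, and Agt fell below it.

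The samples are 24 RNA-seq libraries of polyA RNA from brown fat of C57BL/6J mice, with 6 libraries per group and 4 groups. TZP mice received tirzepatide, an agonist of the receptors for GIP and GLP-1, and LAGIPRA mice received a GIP receptor agonist of long action, with no GLP-1 part. PairFedVehicle mice received vehicle with their food held to the intake of another group, and Vehicle mice received vehicle without that limit. Per the series title all were obese and insulin resistant, while doses, duration, age, sex and the group that set the pair-fed amount are not known from these sources. Samples were whole tissue, so fewer cells of a type and less RNA per cell cannot be told apart. The tests below measure the spread between these samples, and the labels do not say how many animals or dissections lie behind each.

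Leptin reports energy stores to the brain, and its release by white fat is known to drop when animals eat less. Adiponectin sensitizes liver and muscle to insulin through the receptors AdipoR1 and AdipoR2. Adipsin is a serine protease that cuts factor B in the alternative complement pathway, and in mice it is made mostly by fat cells. Resistin is an adipocyte hormone in mice that opposes insulin, retinol-binding protein 4 carries vitamin A alcohol in blood, angiotensinogen is the precursor of the angiotensin peptides, apelin acts on blood vessels through its receptor Aplnr, and Nampt makes the precursor of NAD inside cells and is also found outside them. Brown fat burns fuel to make heat, and leptin and resistin are better known as products of white fat.

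All levels below are the log2 values of the deposited table, whose scale no source names and whose low values step like log2 of a value plus about 1, so that fold changes of weakly expressed genes are understated. Levels are not per transcript length and are not compared between genes. The tissue label was checked with 12 brown adipocyte markers, whose mean log2 level was 9.17 ± 0.39 in TZP, 9.31 ± 0.12 in LAGIPRA, 9.31 ± 0.12 in PairFedVehicle and 9.05 ± 0.19 in Vehicle (SD, n = 6 each). Of 9 white adipocyte markers chosen without these 8 genes, Tcf21, Hoxc9, Hoxc10 and Wt1 had a mean below 1. The others were expressed, with Vehicle means of 7.17 for Hoxc8, 7.47 for Npr3, 5.52 for Nnat, 5.28 for Slc7a10 and 4.99 for Mest. The white list was therefore mixed and does not show white adipocytes to be absent. The mean of 12 skeletal muscle markers ran from 0.95 to 10.78 over the libraries and was close to absent in TZP 3, PairFedVehicle 5 and Vehicle 1. The slope of expression on transcript length averaged -0.0662 in TZP, 0.00977 in LAGIPRA, 0.0123 in PairFedVehicle and 0.0441 in Vehicle, with libraries 3 to 6 of TZP the low ones. Read numbers are not given, and the log2 level that stands for 1 read, a proxy of depth, averaged 1.32 in TZP, 1.35 in LAGIPRA, 1.15 in PairFedVehicle and 1.04 in Vehicle.

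Among these genes, pair feeding gave 4 calls against Vehicle, tirzepatide 1 and LAGIPRA 0, and the difference between these counts was not tested. Between PairFedVehicle and Vehicle, Cfd rose and Lep, Rbp4 and Apln fell, 4 of the 7 tested genes, where 8.61% of all tested genes passed an adjusted p of 0.05 (limma). Between TZP and Vehicle, Lep alone passed and was lower, 1 of 7, where 22% of all genes passed. Between LAGIPRA and Vehicle, 0 of 7 passed with limma, where 13.7% of all genes passed. An unadjusted p under 0.05 was reached by 3 of the 7 and by 5436 of all 17263 genes. Set against pair feeding, both agonist groups had higher Lep and Rbp4 and lower Cfd. These were 3 of 7 genes for TZP, where 16.4% of all genes passed, and 3 of 7 for LAGIPRA, where 11.9% passed. Between TZP and LAGIPRA, 0 of 7 passed with limma, where 0.400% of all genes passed. Here 3 of the 7 and 2835 of all 17263 genes had an unadjusted p under 0.05. Food intake is not given, and whether it was matched between PairFedVehicle and either agonist group is not known. The comparisons share their PairFedVehicle or Vehicle samples and are therefore not independent of each other.

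**Figure D1:**
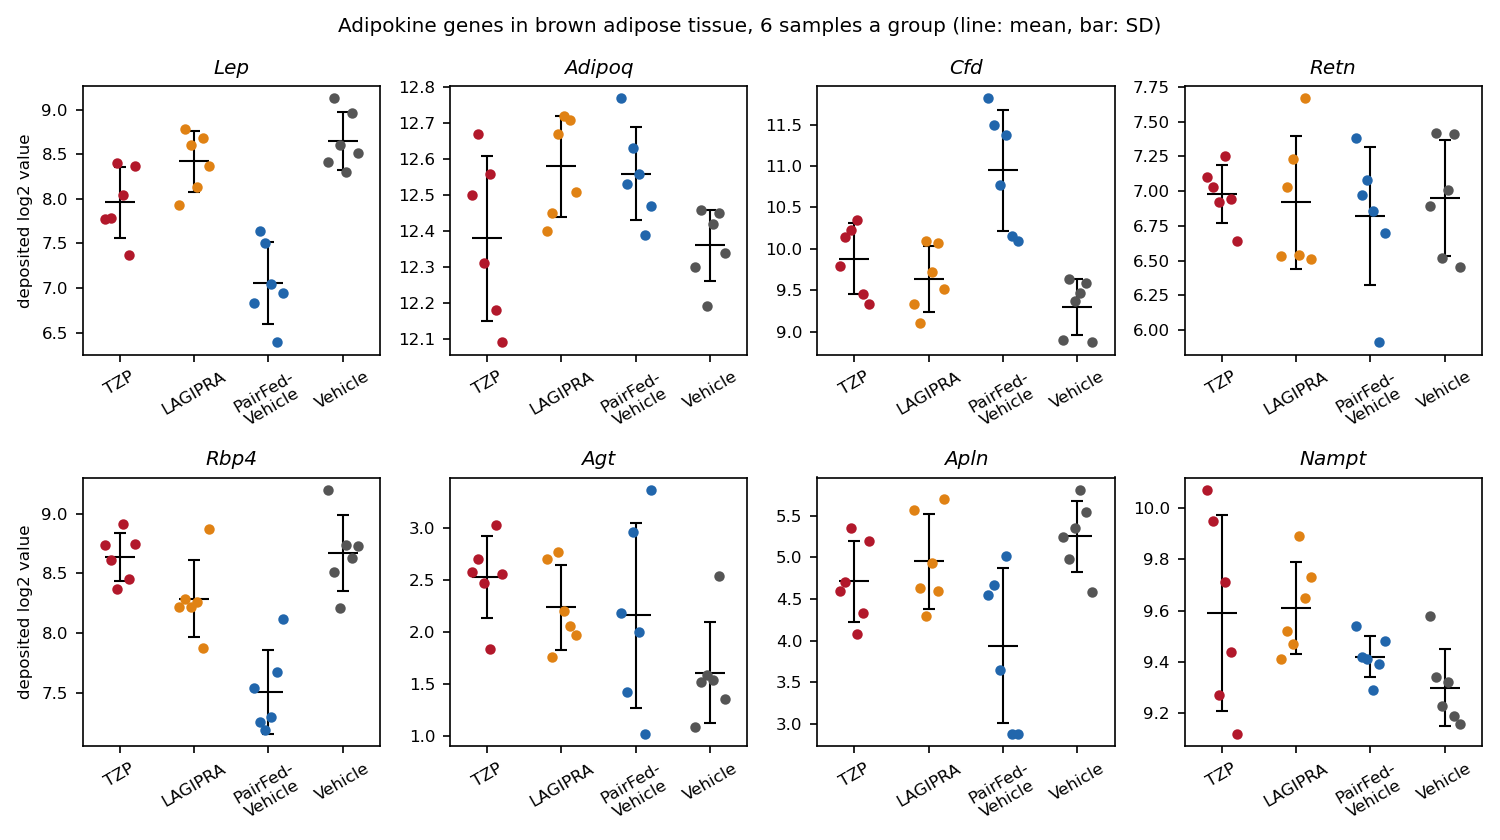
Deposited log2 level of the 8 adipokine genes in each of the 24 brown fat samples. Each point is a sample, the line is the group mean and the bar is the SD (n = 6). PairFedVehicle points of Lep and Rbp4 lie below all Vehicle points, and those of Cfd lie above them.

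Groups that do not overlap at all were also counted. Between PairFedVehicle and Vehicle, 3 of 7 genes (Lep, Rbp4 and Cfd) had no overlap of the 6 and 6 samples, against 4.76% of all tested genes. Between LAGIPRA and PairFedVehicle it was 2 of 7 (Lep and Cfd), against 5.86%, and between TZP and PairFedVehicle 1 of 7 (Rbp4), against 4.92%. None of the 7 was free of overlap between TZP and Vehicle (background 5.45%), LAGIPRA and Vehicle (4.65%) or TZP and LAGIPRA (0.811%).

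Lep was lowest in pair-fed mice. Its log2 level ran from 7.37 to 8.40 (median 7.92) in TZP samples and from 7.93 to 8.78 (median 8.49) in LAGIPRA samples. In PairFedVehicle samples it ran from 6.39 to 7.64 (median 6.99), against 8.30 to 9.13 (median 8.55) in Vehicle samples. Every PairFedVehicle sample thus lay below every Vehicle and every LAGIPRA sample. Of the TZP samples, 5 of 6 lay above all PairFedVehicle samples and 4 of 6 lay below all Vehicle samples.

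Lep fell in PairFedVehicle relative to Vehicle by 1.59 on the log2 scale (SE 0.209, adjusted p = 3.13e-05), which is 0.331 times the Vehicle level and rank 53 of 17263 genes by p. It was higher in LAGIPRA than in PairFedVehicle (log2 fold change 1.36, SE 0.209, adjusted p = 0.000161) and higher in TZP than in PairFedVehicle (0.90, adjusted p = 0.00557). Lep was lower in TZP than in Vehicle (-0.69, adjusted p = 0.0209), and the change from Vehicle in LAGIPRA did not pass (-0.24, 95% interval -0.669 to 0.195, adjusted p = 0.457). TZP and LAGIPRA themselves did not differ past the threshold (-0.46, 95% interval -0.889 to -0.025, adjusted p = 0.274), so a difference between the agonists in Lep is not shown.

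The pair-feeding call of Lep and that of LAGIPRA against PairFedVehicle held in all 26 alternative settings of each. The TZP call against Vehicle was lost in 5 of 27. Its value was -0.56 with the value of 1 read in the fit (adjusted p = 0.119), -0.78 with the length slope (0.181), -0.87 with TZP 1 and 2 alone (0.0730), -0.60 without Vehicle 2 (0.0550) and -0.58 without TZP 5 (0.0593). The TZP call against PairFedVehicle was lost in 2 of 27, with the length slope in the fit (log2 fold change 0.84, adjusted p = 0.0700) and with TZP 1 and 2 alone (0.73, adjusted p = 0.133). Here and below, the fit with TZP 1 and 2 alone keeps 2 TZP samples. A call lost there does not by itself show a smaller change.

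The 250 bases upstream of the Lep start (RefSeq, GRCm38.p6, chr6:29059971-29060220, plus strand) are shown because Lep had the smallest adjusted p of the 8 genes under pair feeding. Capitals mark a match to TTGCNNAA, the core bound by C/EBP factors, which control fat cell genes, at positions -55 to -48 from the start.
Lep: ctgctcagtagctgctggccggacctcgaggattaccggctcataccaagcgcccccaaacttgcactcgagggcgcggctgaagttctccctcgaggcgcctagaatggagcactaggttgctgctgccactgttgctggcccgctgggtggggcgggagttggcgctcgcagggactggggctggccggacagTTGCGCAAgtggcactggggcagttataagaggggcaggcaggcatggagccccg
This palindrome overlaps a pair of matches to the E-box CANNTG, at -58 to -53 and at -50 to -45. Searched on both strands over 32851 RefSeq windows of this length, TTGCNNAA was present in 9.56%, CANNTG in 66.2%, CCAAT in 33.8% and TATAAA in 12.4%. A match is a description of the letters and no measure of binding.

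Among the genes whose log2 level tracked Lep most closely over the 24 samples were Fads3, of the fatty acid desaturase family (Pearson r = 0.884), and Trabd2b (0.873). With group means removed these values were 0.768 for Fads3 and 0.440 for Trabd2b. Like Lep, both genes were lower in PairFedVehicle than in Vehicle, by log2 fold changes of -0.86 for Fads3 (adjusted p = 0.00137) and -1.21 for Trabd2b (adjusted p = 5.65e-06). The values are a description over samples that share a normalization and the group differences. A like change under pair feeding largely follows from picking genes by r over these samples.

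The receptor gene Lepr lay below the filter, with mean log2 levels of 0.74 in TZP, 0.68 in LAGIPRA, 0.88 in PairFedVehicle and 0.49 in Vehicle. Of 9 tested genes of leptin reception and signalling, 1 was higher and 2 were lower in PairFedVehicle than in Vehicle (median log2 fold change -0.20), 1 was higher and 3 were lower in TZP (-0.37), and 1 was higher and 4 were lower in LAGIPRA (-0.31). Over all tested genes the median log2 fold change lay between -0.01 and 0.04 in the 6 comparisons. Against Vehicle, 22% of all tested genes passed in TZP, 13.7% in LAGIPRA and 8.61% in PairFedVehicle. Whether this list or those below held more calls than these shares was not tested. Stat3, the transcription factor that leptin and many cytokines activate, had no overlap with Vehicle in any of the 3 groups, which share the same Vehicle samples. Over all tested genes, 5.45% had no overlap with Vehicle in TZP, 4.65% in LAGIPRA and 4.76% in PairFedVehicle. The mean log2 level of Stat3 was 5.81 ± 0.23 in TZP, 6.02 ± 0.13 in LAGIPRA and 6.09 ± 0.07 in PairFedVehicle, against 6.48 ± 0.10 in Vehicle (SD, n = 6 each, adjusted p = 0.000277, 0.00524 and 0.00757). Socs3, a feedback inhibitor that Stat3 induces, fell by 1.49 in PairFedVehicle (adjusted p = 0.0128) and by 1.22 in LAGIPRA (adjusted p = 0.0319), and its change in TZP was -0.79 (adjusted p = 0.127). Sh2b1, an adaptor that strengthens leptin and insulin signalling, was higher than in Vehicle in PairFedVehicle (0.30, adjusted p = 0.00545), LAGIPRA (0.32, adjusted p = 0.00714) and TZP (0.22, adjusted p = 0.0221). Jak2, the kinase bound to the leptin receptor, fell by 0.80 in TZP (adjusted p = 0.00126), a value of -0.25 with the length slope in the fit (adjusted p = 0.355), and the call was also lost with TZP 1 and 2 alone.

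**Figure D2:**
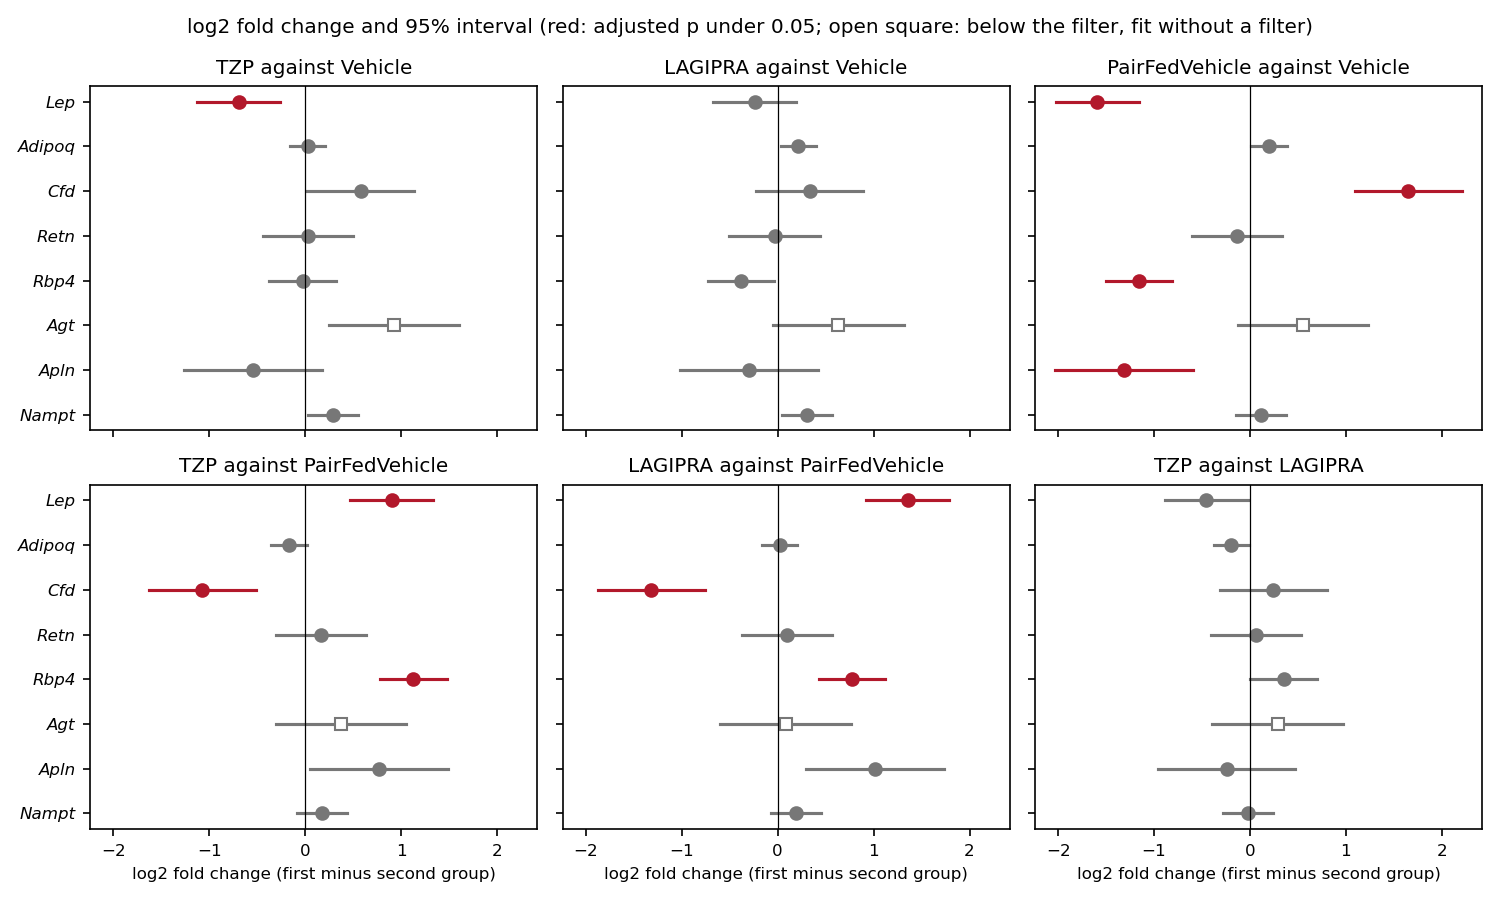
log2 fold change of each adipokine gene with its 95% interval in the 6 comparisons, first group minus second. Red points passed an adjusted p of 0.05 in limma, and the open square is Agt from the fit without a filter. Lep and Rbp4 lie left of 0 and Cfd right of 0 under pair feeding, and the reverse in the comparisons of TZP and LAGIPRA with PairFedVehicle.

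Cfd rose under pair feeding, where Lep fell. Its log2 level ran from 9.33 to 10.35 (median 9.97) in TZP samples and from 9.11 to 10.10 (median 9.62) in LAGIPRA samples. In PairFedVehicle samples it ran from 10.10 to 11.82 (median 11.08), against 8.87 to 9.63 (median 9.42) in Vehicle samples. All 6 PairFedVehicle samples lay above all Vehicle samples. They also lay above all LAGIPRA samples, though the highest LAGIPRA sample and the lowest PairFedVehicle sample were both 10.10 to 2 decimals, and 3 of 6 TZP samples lay below all PairFedVehicle samples. The PairFedVehicle samples were themselves spread, with an SD of 0.73 on the log2 scale against 0.34 in Vehicle, and PairFedVehicle 5 and 6 were the 2 lowest, at 10.15 and 10.10.

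Cfd was 3.14 times as high in PairFedVehicle as in Vehicle (log2 fold change 1.65, SE 0.269, adjusted p = 0.000406). It was lower in TZP than in PairFedVehicle (-1.07, SE 0.269, adjusted p = 0.00888) and lower in LAGIPRA than in PairFedVehicle (-1.32, adjusted p = 0.0023). The values against Vehicle did not pass for TZP (0.58, 95% interval 0.022 to 1.135, adjusted p = 0.124) or LAGIPRA (0.33, 95% interval -0.221 to 0.891, adjusted p = 0.410). In order of level the groups ran PairFedVehicle, TZP, LAGIPRA and Vehicle, and only the first neighbouring pair differed past the threshold.

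Of 8 pan-adipocyte markers 3 were higher and 0 lower in PairFedVehicle than in Vehicle, with marker means of 11.44 in TZP, 11.55 in LAGIPRA, 11.54 in PairFedVehicle and 11.34 in Vehicle. Over all 17263 tested genes, 856 were higher and 631 lower in PairFedVehicle than in Vehicle. The part of adipocyte content in the Cfd values was not tested. With the pan-adipocyte marker mean as a covariate, a setting chosen after the values were seen, the pair-feeding change of Cfd was 1.14 (adjusted p = 0.00204). Since 3 of the 8 markers were themselves higher under pair feeding, this fit cannot separate adipocyte content from RNA per cell. The TZP call against PairFedVehicle was lost with the length slope in the fit (-0.94, adjusted p = 0.116) and with TZP 1 and 2 alone (-0.99, adjusted p = 0.135), against -1.07 in the main fit.

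The upstream window of Cfd (chr10:79890603-79890852, plus strand) is shown as that of the gene that rose while Lep and Rbp4 fell.
Cfd: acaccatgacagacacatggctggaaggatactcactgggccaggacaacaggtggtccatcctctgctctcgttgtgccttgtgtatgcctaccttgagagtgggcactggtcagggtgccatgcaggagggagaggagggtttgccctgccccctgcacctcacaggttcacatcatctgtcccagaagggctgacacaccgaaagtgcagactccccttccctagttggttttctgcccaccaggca
It held no match to CCAAT, to TATAAA or to TTGCNNAA, hence no capitals, and 3 matches to CANNTG, at -237 to -232, -201 to -196 and -74 to -69. No match says only that these letters are not in this window.

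Slc27a1, which brings fatty acids into cells (r = 0.901), and Hsd17b10, a mitochondrial dehydrogenase (0.887), were among the genes that tracked Cfd most closely over the 24 samples. Both rose with it under pair feeding, without overlap with Vehicle, as 4.76% of all tested genes had. They were picked by r with the group differences left in, so a like change under pair feeding largely follows from that choice. Slc27a1 was higher by 0.73 on the log2 scale (adjusted p = 0.000149) and Hsd17b10 by 0.71 (adjusted p = 0.000125). With group means removed, r was 0.760 for Slc27a1 and 0.702 for Hsd17b10.

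No other complement gene passed under pair feeding. Of 11 tested, 0 passed in either direction between PairFedVehicle and Vehicle with limma (median -0.11, 1 with an unadjusted p under 0.05), 2 fell in TZP (median -0.19) and 3 fell in LAGIPRA (median -0.40). Cfb, the factor B that adipsin cuts, had a log2 level of 5.56 ± 0.19 in TZP, 5.39 ± 0.27 in LAGIPRA and 5.81 ± 0.35 in PairFedVehicle, against 6.14 ± 0.32 in Vehicle (SD, n = 6 each). It fell by 0.58 in TZP (adjusted p = 0.0135) and by 0.74 in LAGIPRA (adjusted p = 0.00886), and its change in PairFedVehicle was -0.33 (adjusted p = 0.227). C3, the central component, did not pass in any of these 3 comparisons (adjusted p of 0.702 in TZP and 0.404 in PairFedVehicle). Macrophages make several complement proteins, and 9 macrophage markers averaged 8.71 in TZP, 8.53 in LAGIPRA, 8.89 in PairFedVehicle and 9.22 in Vehicle, with 1, 5 and 0 of them lower than in Vehicle in the first 3 groups and 0 higher. Over all 17263 tested genes, 1784, 868 and 631 were lower than in Vehicle in the same groups. The part of macrophages in these results was not tested.

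Rbp4 was lowest in pair-fed mice, and in TZP mice it stood near the Vehicle level. The log2 level of Rbp4 ran from 8.37 to 8.91 (median 8.68) in TZP samples and from 7.88 to 8.87 (median 8.24) in LAGIPRA samples. It ran from 7.19 to 8.12 (median 7.42) in PairFedVehicle samples, against 8.21 to 9.20 (median 8.68) in Vehicle samples. The pair-fed samples lay below all Vehicle and all TZP samples, and 5 of 6 LAGIPRA samples lay above all of them. TZP and Vehicle samples had the same median, and the TZP range lay inside the wider Vehicle range.

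Rbp4 was 0.449 times as high in PairFedVehicle as in Vehicle (log2 fold change -1.15, SE 0.168, adjusted p = 0.000107). It was 2.18 times as high in TZP as in PairFedVehicle (1.13, adjusted p = 0.000132) and 1.71 times as high in LAGIPRA as in PairFedVehicle (0.77, adjusted p = 0.00374). Against Vehicle the change was -0.03 in TZP (95% interval -0.376 to 0.317, adjusted p = 0.92) and -0.38 in LAGIPRA (95% interval -0.727 to -0.034, adjusted p = 0.122). TZP against LAGIPRA gave 0.35 (95% interval 0.005 to 0.698, adjusted p = 0.297). The 3 calls against or under pair feeding held in every alternative setting tried.

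RefSeq gives Rbp4 an upstream window for each of 2 starts on the minus strand of chromosome 19, shown for comparison with Lep, since both genes fell in pair-fed mice. The first window is chr19:38124812-38125061, with TATAAA at -28 to -23 and a match to TTGCNNAA read on the opposite strand at -128 to -121, both in capitals. The second is chr19:38125322-38125571, with CCAAT read on the opposite strand at -162 to -158, in capitals. It also held a match to CANNTG at -236 to -231, left in small letters, and the first window held none.
Rbp4 first window: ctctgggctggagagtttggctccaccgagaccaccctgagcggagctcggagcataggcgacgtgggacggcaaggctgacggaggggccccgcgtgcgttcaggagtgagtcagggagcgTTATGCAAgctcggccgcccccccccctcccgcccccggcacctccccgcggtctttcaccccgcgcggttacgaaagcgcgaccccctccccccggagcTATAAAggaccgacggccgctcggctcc
Rbp4 second window: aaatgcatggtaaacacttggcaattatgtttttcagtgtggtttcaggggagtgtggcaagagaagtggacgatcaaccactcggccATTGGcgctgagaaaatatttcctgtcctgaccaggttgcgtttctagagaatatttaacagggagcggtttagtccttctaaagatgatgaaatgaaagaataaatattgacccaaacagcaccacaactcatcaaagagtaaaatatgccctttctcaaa
Lep and the first Rbp4 window share a match to the C/EBP core, at different distances from their starts, and the Lep window has no TATAAA. The deposited values are per gene, so which start was used was not analysed here.

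Over the 24 samples Rbp4 was tracked most closely by Rbbp8, a DNA repair factor (r = 0.873), Npr3, the clearance receptor of natriuretic peptides (0.866), and Ankrd37 (0.862). Npr3 averaged 7.27 ± 0.30 in TZP and 7.19 ± 0.17 in LAGIPRA, with 5.58 ± 0.30 in PairFedVehicle and 7.47 ± 0.26 in Vehicle (SD, n = 6 each). It fell by 1.89 under pair feeding (adjusted p = 4.9e-08), with no overlap. The gene was picked by r with the group differences left in, so this fall largely follows from that choice. Npr3 was also the single gene called among the 5 tested white adipocyte markers between PairFedVehicle and Vehicle, where 8.61% of all tested genes passed. The mean of all 9 white markers was 3.39 in TZP, 3.41 in LAGIPRA, 3.30 in PairFedVehicle and 3.48 in Vehicle.

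Genes of retinol transport and action gave few calls. Stra6, the receptor for the retinol-binding protein, and its liver counterpart Stra6l lay below the filter, as did Ttr and Lrat. Of 8 tested genes 0 passed with limma in PairFedVehicle or TZP against Vehicle (2 with an unadjusted p under 0.05 in each). In LAGIPRA against Vehicle, the retinoic acid receptor genes went apart, Rara lower (-0.48, adjusted p = 0.0186) and Rarb higher (0.41, adjusted p = 0.0449). Rarb was higher by 0.81 in LAGIPRA than in PairFedVehicle (adjusted p = 0.000339) and by 0.44 in TZP than in PairFedVehicle (adjusted p = 0.0267). Its mean log2 level was 5.74 ± 0.24 in TZP, 6.11 ± 0.20 in LAGIPRA, 5.30 ± 0.23 in PairFedVehicle and 5.70 ± 0.26 in Vehicle (SD, n = 6 each).

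**Figure D3:**
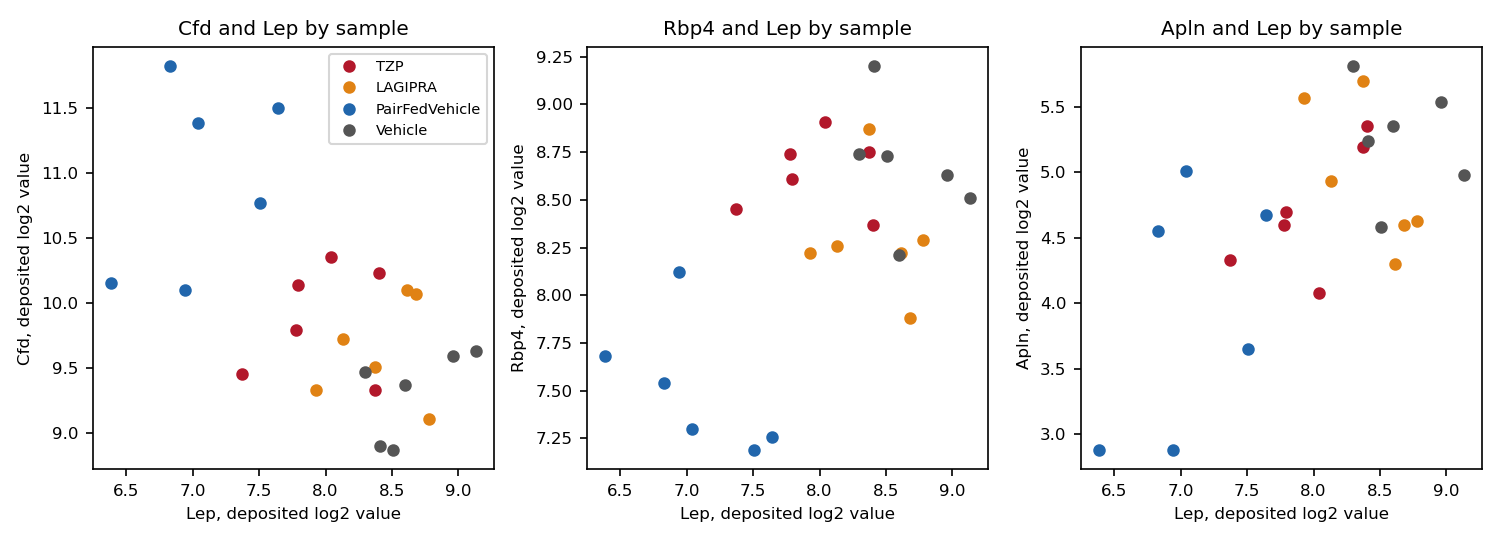
Log2 level of Cfd, Rbp4 and Apln against that of Lep, a point per sample and a colour per group. PairFedVehicle samples lie at low Lep in all 3 panels, with high Cfd and low Rbp4. In Apln, 2 of them lie at 2.88 and 1 at 3.65, below every sample of the other groups.

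Apln was also lowest in pair-fed mice, with a wide spread. Its log2 level ran from 4.08 to 5.35 (median 4.65) in TZP samples and from 4.30 to 5.70 (median 4.78) in LAGIPRA samples. In PairFedVehicle samples it ran from 2.88 to 5.01 (median 4.10), against 4.58 to 5.81 (median 5.30) in Vehicle samples. Of the pair-fed samples 4 of 6 lay below all Vehicle samples, and the other 2 lay among them. Both samples at 2.88 were PairFedVehicle 5 and 6, which had the lowest and the highest muscle marker mean of all libraries (0.95 and 10.78).

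Apln was 0.403 times as high in PairFedVehicle as in Vehicle (log2 fold change -1.31, SE 0.347, adjusted p = 0.0194). The other comparisons did not pass, with 0.77 for TZP against PairFedVehicle (adjusted p = 0.137), 1.01 for LAGIPRA against PairFedVehicle (adjusted p = 0.0598), -0.54 for TZP against Vehicle (adjusted p = 0.274) and -0.30 for LAGIPRA against Vehicle (adjusted p = 0.585). The pair-feeding call was lost without PairFedVehicle 6 (-1.10, adjusted p = 0.0508), without the 3 libraries lowest in muscle markers (-1.10, adjusted p = 0.0715) and with only the 2 groups in the fit (adjusted p = 0.0538). No neighbouring pair of groups in the order Vehicle, LAGIPRA, TZP and PairFedVehicle differed past the threshold.

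The Apln window (chrX:48034854-48035103, minus strand) completes the genes that passed under pair feeding.
Apln: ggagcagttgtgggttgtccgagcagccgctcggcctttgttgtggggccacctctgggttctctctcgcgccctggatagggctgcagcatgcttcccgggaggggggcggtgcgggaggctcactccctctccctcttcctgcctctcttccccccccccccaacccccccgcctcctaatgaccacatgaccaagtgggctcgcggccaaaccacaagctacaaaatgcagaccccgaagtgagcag
Like the Cfd window it held only CANNTG among the 4 motifs searched, at -246 to -241, -64 to -59 and -56 to -51.

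Prn (r = 0.791), Prnd (0.790) and Serpinh1, a collagen chaperone (0.757), tracked Apln most closely over the 24 samples. Prn and Prnd may share reads, so their values are uncertain. All 3 fell under pair feeding without overlap, Prnd by 2.21, Prn by 1.33 and Serpinh1 by 0.61 on the log2 scale. They were picked by r with the group differences left in, so a like fall largely follows from that choice.

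The apelin receptor gene Aplnr changed where its ligand gene did not pass. Its log2 level was 10.88 ± 0.36 in TZP, 11.57 ± 0.28 in LAGIPRA, 11.74 ± 0.44 in PairFedVehicle and 11.54 ± 0.29 in Vehicle (SD, n = 6 each). It was lower in TZP than in Vehicle (-0.66, adjusted p = 0.0161) and than in PairFedVehicle (-0.87, adjusted p = 0.00377), and pair feeding itself gave 0.20 (adjusted p = 0.578). Aplnr is expressed in endothelium, and 6 of 10 endothelial markers were also lower in TZP than in Vehicle and 7 of 10 lower than in PairFedVehicle, with 0 higher in either. Over all 17263 tested genes, 1784 and 1384 were lower in these comparisons. The endothelial marker mean was 7.30 in TZP, 7.60 in LAGIPRA, 7.69 in PairFedVehicle and 7.65 in Vehicle, and its part in the Aplnr values was not tested. Furin, a protease that processes many precursor proteins, was higher in TZP than in PairFedVehicle (0.29, adjusted p = 0.00562) and in LAGIPRA than in PairFedVehicle (0.25, adjusted p = 0.0195). Mme, the peptidase neprilysin, was lower than in Vehicle in TZP (-0.66, adjusted p = 0.0115) and in PairFedVehicle (-0.69, adjusted p = 0.017), and the TZP change was 0.16 once the length slope entered the fit.

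Adipoq differed little between groups. Its log2 level ran from 12.09 to 12.67 (median 12.40) in TZP samples and from 12.40 to 12.72 (median 12.59) in LAGIPRA samples. It ran from 12.39 to 12.77 (median 12.55) in PairFedVehicle samples, against 12.19 to 12.46 (median 12.38) in Vehicle samples. LAGIPRA and PairFedVehicle samples covered nearly the same range, and 4 of 6 and 5 of 6 of them lay above all Vehicle samples.

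Adipoq passed in none of the 6 comparisons. The log2 fold change was 0.22 for LAGIPRA against Vehicle (95% interval 0.031 to 0.402, adjusted p = 0.1005), 0.20 for PairFedVehicle against Vehicle (95% interval 0.011 to 0.382, adjusted p = 0.188) and 0.02 for TZP against Vehicle (95% interval -0.161 to 0.209, adjusted p = 0.877). With the pan-adipocyte marker mean as a covariate, the value under pair feeding was 0.004 (adjusted p = 0.98) and that of LAGIPRA against Vehicle 0.019 (adjusted p = 0.892). The part of adipocyte content in the Adipoq values was not tested. Lrba (r = 0.900), Ces1d, a carboxylesterase that can hydrolyse lipids (0.897), and Aldh6a1, an enzyme of valine breakdown (0.896), tracked Adipoq most closely.

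Of the adiponectin receptors, Adipor1 passed in none of the 6 comparisons, with group means between 8.50 and 8.58. Adipor2 averaged 9.56 ± 0.39 in TZP, 9.96 ± 0.15 in LAGIPRA, 9.95 ± 0.15 in PairFedVehicle and 9.75 ± 0.13 in Vehicle (SD, n = 6 each). Adipor2 was lower in TZP than in PairFedVehicle (-0.38, adjusted p = 0.0418 with limma), a value of 0.00 with TZP 1 and 2 alone. This call held in only 12 of 27 alternative settings. Of 8 tested genes of reception, binding and secretion, 0 passed with limma in PairFedVehicle against Vehicle (1 with an unadjusted p under 0.05). Over all genes 8.61% passed, and 3977 of 17263 had an unadjusted p under 0.05. Gstk1, a partner of adiponectin in its assembly, rose by 0.42 in TZP (adjusted p = 0.0129) and by 0.43 in LAGIPRA (adjusted p = 0.0203). Cdh13, the cell surface protein T-cadherin that binds adiponectin, fell by 0.24 in TZP (adjusted p = 0.027).

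Retn showed no group difference past the threshold. Retn log2 levels ran from 6.64 to 7.25 (median 6.98) in TZP samples and from 6.51 to 7.67 (median 6.78) in LAGIPRA samples. It ran from 5.91 to 7.38 (median 6.91) in PairFedVehicle samples, against 6.45 to 7.42 (median 6.95) in Vehicle samples. The 4 groups overlapped widely, and the lowest value belonged to PairFedVehicle 5, the library lowest in muscle markers. The adjusted p ran from 0.692 to 0.942 over the 6 comparisons, and the 95% interval of PairFedVehicle against Vehicle, -0.602 to 0.339, leaves room for changes of up to that size. Car3, carbonic anhydrase 3 (r = 0.804), Car5b, a mitochondrial carbonic anhydrase (0.777), and Tshr, the thyrotropin receptor (0.734), tracked Retn most closely.

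Of the 4 tested genes of the resistin family and its candidate binding partners, 0 passed with limma in TZP (3 with an unadjusted p under 0.05) or PairFedVehicle (1) against Vehicle. In LAGIPRA, Retnla, a resistin-like protein made by macrophages and fat cells, was higher than in Vehicle (0.91, adjusted p = 0.0307) and Cap1, reported as a resistin receptor in human cells, was lower (-0.53, adjusted p = 0.0311). Neither passed in LAGIPRA with the value of 1 read in the fit.

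Nampt was slightly higher in the agonist groups without passing. Its log2 level ran from 9.12 to 10.07 (median 9.57) in TZP samples and from 9.41 to 9.89 (median 9.58) in LAGIPRA samples. It ran from 9.29 to 9.54 (median 9.41) in PairFedVehicle samples, against 9.16 to 9.58 (median 9.27) in Vehicle samples. TZP samples were the most spread, with 3 of 6 above and 1 of 6 below all Vehicle samples.

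The log2 fold change of Nampt was 0.29 for TZP against Vehicle (95% interval 0.030 to 0.552, adjusted p = 0.101), 0.31 for LAGIPRA against Vehicle (95% interval 0.046 to 0.568, adjusted p = 0.0985) and 0.12 for PairFedVehicle against Vehicle (adjusted p = 0.63). The TZP value passed in 6 of 27 alternatives, among them the removal of TZP 3 (adjusted p = 0.0492) or TZP 6 (0.0268) and the fit with TZP 1 and 2 alone (0.71, adjusted p = 0.00658), and was 0.08 with the value of 1 read in the fit (adjusted p = 0.686). The LAGIPRA value passed in 4 of 26 and was 0.07 with the value of 1 read in the fit (adjusted p = 0.767). Within groups Nampt moved with the value of 1 read (r = 0.642, rho = 0.697, adjusted permutation p = 0.0416 over 64 relations), which no longer passed without the 2 farthest samples (r = 0.580, adjusted 0.214). Grsf1, a mitochondrial RNA-binding protein (r = 0.901), Dbt (0.891) and Dld (0.878), both parts of mitochondrial dehydrogenase complexes, tracked Nampt most closely.

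Of 11 tested genes of NAD salvage and use beside Nampt, 4 were higher in TZP than in Vehicle (median 0.19), 4 in LAGIPRA (median 0.20) and 2 in PairFedVehicle (median 0.03), with 0 called lower in each and the others not passing. Among all tested genes, 22%, 13.7% and 8.61% passed in these comparisons, in either direction. Naprt, which makes NAD from nicotinic acid, was higher than in Vehicle in TZP (0.54, adjusted p = 0.00311), LAGIPRA (0.42, adjusted p = 0.0244) and PairFedVehicle (0.51, adjusted p = 0.00771). Nmrk1, the nicotinamide riboside kinase, was higher by 0.45 in TZP (adjusted p = 0.0134), 0.49 in LAGIPRA (adjusted p = 0.0161) and 0.56 in PairFedVehicle (adjusted p = 0.00559). In TZP these values were 0.30 for Naprt (adjusted p = 0.295) and 0.21 for Nmrk1 (adjusted p = 0.497) with the length slope in the fit. Nmnat1, which turns the product of Nampt into NAD in the nucleus, was higher in TZP than in PairFedVehicle (0.39, adjusted p = 0.0156) and in LAGIPRA than in PairFedVehicle (0.48, adjusted p = 0.00449).

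Agt was weakly expressed and below the filter, so it has no call. Agt log2 levels ran from 1.84 to 3.03 (median 2.57) in TZP samples and from 1.76 to 2.77 (median 2.13) in LAGIPRA samples. It ran from 1.02 to 3.37 (median 2.09) in PairFedVehicle samples, against 1.09 to 2.54 (median 1.53) in Vehicle samples. These levels lie near the value of 1 read, the groups overlapped, and 4 of 6 TZP samples lay above all Vehicle samples. In the fit without a filter the log2 fold change was 0.92 for TZP against Vehicle (95% interval 0.242 to 1.601, adjusted p = 0.0581), 0.63 for LAGIPRA (adjusted p = 0.217) and 0.55 for PairFedVehicle (adjusted p = 0.382). Usp2 (r = 0.871), Arfgap2 (0.837) and Asb8 (0.814) tracked Agt most closely, and within groups Agt moved with the skeletal muscle marker mean (r = 0.596, rho = 0.577, permutation p = 0.00573, adjusted 0.0458 over 64 relations, r = 0.405 without the 2 samples farthest in muscle, which no longer passed, adjusted 0.272).

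The other genes of the renin-angiotensin system gave 0 calls with limma among 6 tested in each of the 6 comparisons, with 0 to 3 of them at an unadjusted p under 0.05. Over all 17263 genes that unadjusted count ran from 2835 to 6168. Agtr1a, the main angiotensin receptor, averaged 4.93 ± 0.26 in TZP, 4.97 ± 0.19 in LAGIPRA, 5.19 ± 0.19 in PairFedVehicle and 4.77 ± 0.30 in Vehicle (SD, n = 6 each), and its adjusted p between PairFedVehicle and Vehicle was 0.0535.

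Within groups, Adipoq, Cfd and Retn rose and fell together from sample to sample. The 28 pairs of the 8 genes were correlated over the 24 samples after group means were removed, with 100000 permutations within groups, two-sided, and Benjamini-Hochberg adjustment over the pairs. Adipoq and Cfd had Pearson r = 0.686 and Spearman rho = 0.678 (permutation p = 0.00031, adjusted 0.00588), and r was 0.684 without the 2 samples farthest in Adipoq, TZP 2 and TZP 6. Adipoq and Retn had r = 0.618 and rho = 0.643 (permutation p = 0.00042, adjusted 0.00588), and r was 0.666 without the same 2 samples. Cfd and Retn had r = 0.662 and rho = 0.680 (permutation p = 0.00083, adjusted 0.00775). Without PairFedVehicle 5 and 6 that r was 0.571 and no longer passed (adjusted 0.0706). No other pair passed, and Lep came closest to Retn (r = 0.509, rho = 0.464, permutation p = 0.0186, adjusted 0.104).

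**Figure D4:**
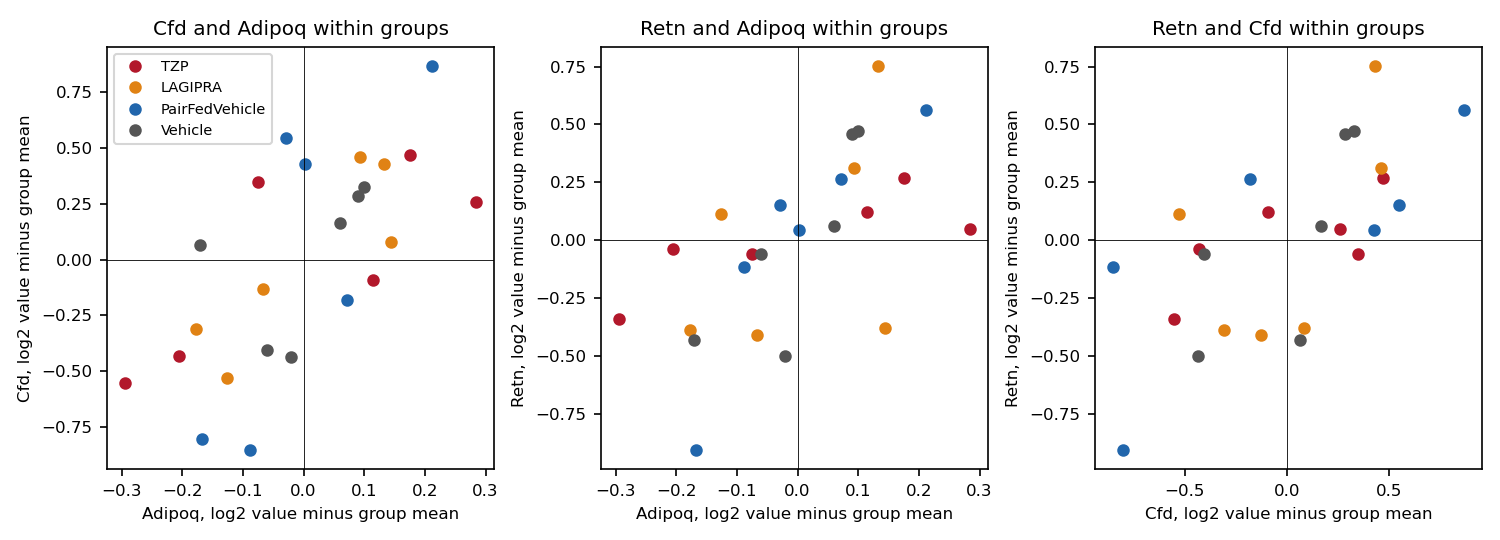
Deviation of each sample from its group mean on the log2 scale for the 3 pairs of genes whose correlation passed, Cfd and Retn against Adipoq and Retn against Cfd. Points of all 4 groups run from low on both axes to high on both.

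The same within-group deviations were set against marker means and library properties, 64 relations in all, of which 12 passed the adjusted threshold and 5 still did without the 2 farthest samples. The pan-adipocyte marker mean moved with Adipoq (r = 0.857, rho = 0.864, permutation p = 1e-05, the smallest the permutations can give, adjusted 0.00064), Retn (r = 0.704, rho = 0.707, adjusted permutation p = 0.00512), Cfd (r = 0.719, rho = 0.653, adjusted permutation p = 0.011) and Nampt (r = 0.621, rho = 0.629, adjusted permutation p = 0.011). Without the 2 farthest samples these r were 0.831, 0.631, 0.686 and 0.647. Adipoq also moved with the value of 1 read (r = 0.590, rho = 0.585, adjusted permutation p = 0.0459). That relation no longer passed without the 2 farthest samples (r = 0.658, adjusted 0.0576). Cfd and Retn did not pass with the value of 1 read. The macrophage marker mean ran opposite to Adipoq (r = -0.679, rho = -0.681, adjusted permutation p = 0.011, r = -0.628 without 2). Lep did not pass with the pan-adipocyte mean. It moved with the white adipocyte marker mean (r = 0.597, rho = 0.604, adjusted permutation p = 0.0416), which no longer passed without the 2 farthest samples (r = 0.469, adjusted 0.202).

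Among 11 regulators of adipokine genes, Klf15, a glucocorticoid-responsive factor of fat cells, was higher than in Vehicle in TZP (0.96, adjusted p = 0.0022), LAGIPRA (0.80, adjusted p = 0.0143) and PairFedVehicle (0.75, adjusted p = 0.0187). Cebpb, one of the C/EBP factors, was higher in both agonist groups than in pair-fed mice, with overlap between samples. Its log2 level was 13.55 ± 0.17 in TZP, 13.37 ± 0.23 in LAGIPRA, 12.82 ± 0.31 in PairFedVehicle and 13.17 ± 0.25 in Vehicle (SD, n = 6 each). It was higher in TZP than in PairFedVehicle (0.73, adjusted p = 0.000978) and in LAGIPRA than in PairFedVehicle (0.55, adjusted p = 0.00908), and pair feeding against Vehicle gave -0.36 (adjusted p = 0.107). Nr3c1, the glucocorticoid receptor, fell by 1.03 in TZP relative to Vehicle (adjusted p = 0.0019), a value of -0.09 with the length slope in the fit (adjusted p = 0.733), and the call was also lost with TZP 1 and 2 alone. Srebf1, a factor of lipid synthesis, was higher than in Vehicle in LAGIPRA (0.42, adjusted p = 0.00787) and PairFedVehicle (0.30, adjusted p = 0.036). In all, 2 regulators were higher and 3 lower in TZP than in Vehicle, and 3 were higher and 0 lower in LAGIPRA and in PairFedVehicle. The share of all tested genes that passed was 22% in TZP, 13.7% in LAGIPRA and 8.61% in PairFedVehicle.

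Of 19 other tested adipokines, 2 were higher and 5 lower in TZP than in Vehicle (median -0.25), 2 higher and 6 lower in LAGIPRA (median -0.21) and 1 higher and 4 lower in PairFedVehicle (median -0.13). In the same comparisons 22%, 13.7% and 8.61% of all tested genes passed, and the difference from these shares was not tested. Lcn2, lipocalin 2, had a log2 level of 5.46 ± 0.59 in TZP, 5.35 ± 0.47 in LAGIPRA and 5.50 ± 0.66 in PairFedVehicle, against 6.69 ± 0.21 in Vehicle (SD, n = 6 each), with no overlap between Vehicle and any of the others (adjusted p = 0.00434, 0.00726 and 0.00886). The shares of all tested genes without overlap were 5.45%, 4.65% and 4.76%, and the comparisons share the Vehicle samples. Rarres2, which encodes chemerin, fell by 0.48 in TZP (adjusted p = 0.00303), 0.35 in LAGIPRA (adjusted p = 0.0287) and 0.58 in PairFedVehicle (adjusted p = 0.000957). C1qtnf1, a secreted relative of adiponectin, was lower in TZP than in PairFedVehicle (-0.61, adjusted p = 0.00632) and in LAGIPRA than in PairFedVehicle (-0.51, adjusted p = 0.024). Angptl4, an inhibitor of lipoprotein lipase, fell by 0.55 in PairFedVehicle relative to Vehicle (adjusted p = 0.0288).

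**Figure D5:**
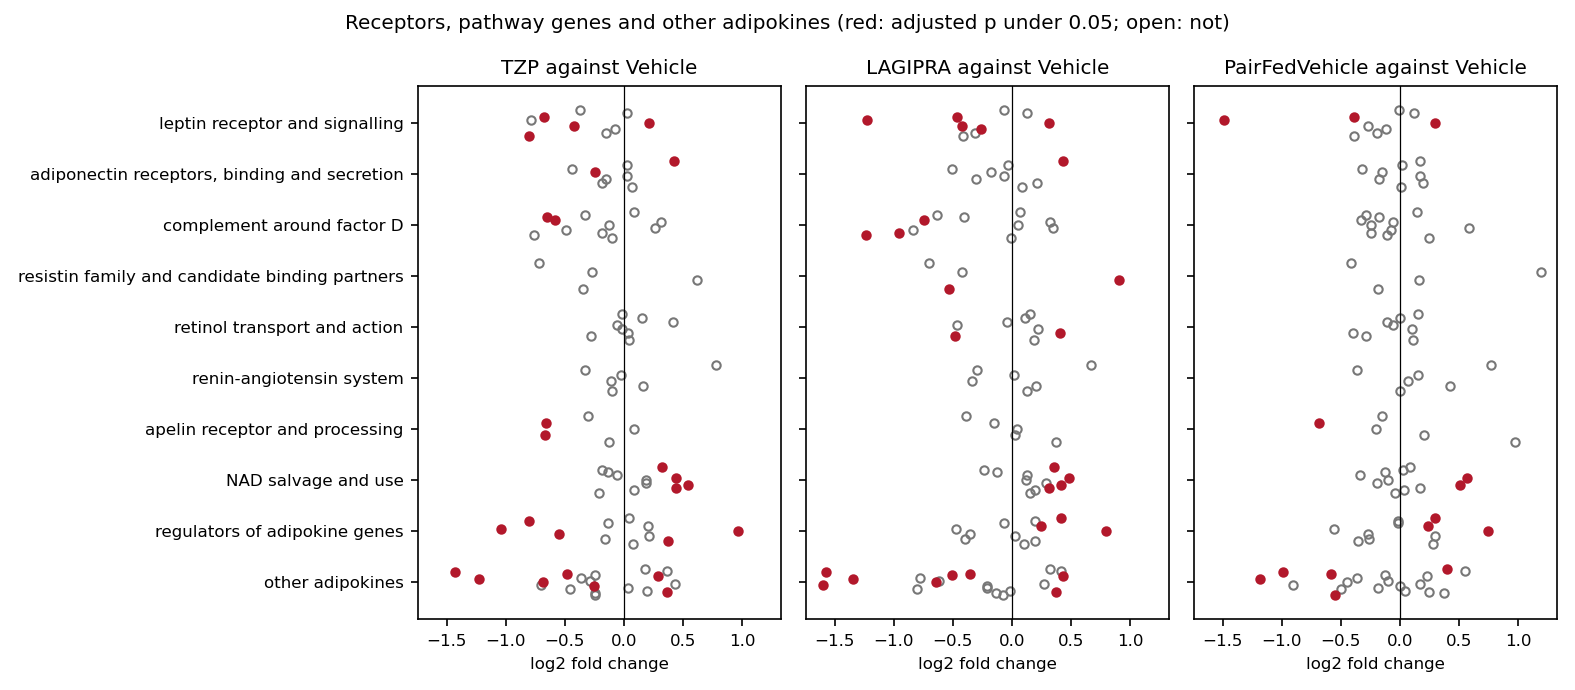
log2 fold change of each tested gene in 10 lists around the 8 adipokines, for TZP, LAGIPRA and PairFedVehicle against Vehicle. Filled red points passed an adjusted p of 0.05 in limma. Most red points of the other adipokines and of leptin signalling lie left of 0, those of the NAD list lie right of it, and all points of the renin-angiotensin list are open.

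Of the 91 pathway calls in the comparisons with Vehicle and PairFedVehicle, 13 held in all alternatives, among them Stat3 and Rarres2 under pair feeding and Cebpb in both agonist groups against PairFedVehicle. With the value of 1 read in the fit, 27 of the 28 pathway calls of LAGIPRA against Vehicle were lost, and 25 of the 26 of TZP against Vehicle were lost once the length slope entered the fit. Of the 14 pathway calls under pair feeding, 3 and 1 were lost in those settings. The value of 1 read averaged 1.35 in LAGIPRA and 1.04 in Vehicle, and the length slope -0.0662 in TZP and 0.0441 in Vehicle. Each covariate goes with the groups, so these fits cannot separate it from a group difference. The loss over all genes is not given, so these losses cannot be called particular to the lists. Of the named LAGIPRA calls against Vehicle, Socs3 with the value of 1 read in the fit was -0.57 (adjusted p = 0.393), Rarb 0.22 (adjusted p = 0.405) and Rara -0.28 (adjusted p = 0.253). With the pan-adipocyte mean in the fit, Srebf1 was 0.15 (adjusted p = 0.24), Klf15 0.48 (adjusted p = 0.132) and Socs3 -0.98 (adjusted p = 0.0993) under pair feeding.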

How the data were processed

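The deposited table gives 1 log2 value per gene and sample, and no column outside the 24 samples was present. The authors' rollup left all libraries with nearly the same quantiles (lower quartile 2.88 to 2.95, upper 6.21), as quantile normalization does. Per the submitters' processing notes, cutadapt 1.9.1 and GSNAP were used. Their roles, the counting tool and the genome build are not given in the sources used here. Per the labels' protocols, RNA was extracted with TRIzol and an RNeasy lipid kit and selected for polyA. The values hold no counts, so depth is unknown and no counting interval is given. Their number, 6 a group, limits precision.

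The lowest 25% of genes by mean (below 2.86, 5754 genes) were left out. limma 3.58.1 in R 4.3.3 was fitted with a mean per group over the 24 samples and a mean-variance trend, and p-values were adjusted by Benjamini-Hochberg over 17263 genes in each of 6 comparisons, with a threshold of 0.05. Fold changes are on the deposited log2 scale. The 10 pathway lists and 8 marker lists hold no member, and 107 of 114 pathway genes were in the table. Of these lists, text names up to 3 called genes per comparison with the smallest p, receptors and direct partners of the 8 genes, and the 3 genes with the highest r to each. Some genes that this rule names are not reported here. Members and lists were chosen with earlier results of these data known. Alternatives changed the filter, variance model, sample weights, normalization, samples, length, muscle or depth covariates and replicate block. Leaving out the 3 libraries lowest in muscle markers and the pan-adipocyte covariate were chosen after seeing the data. Transcript lengths were known for 89.2% of tested genes. The limma step was tested on simulated data. Correlations used SciPy 1.17.1 in Python 3.11.15.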

Additional observations from a re-analysis of the deposited data

Results flagged for a closer look

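Agt in Vehicle 5 had a log2 level of 2.54, while the next highest Vehicle sample was at 1.59 and the lowest at 1.09. The gap to its neighbour was 0.659 of the group's range. This was the single sample that stood out by Dixon's criterion among 32 sets of 6 samples (8 genes in 4 groups), where chance flags about 1 in 20 sets. Vehicle 5 also had the highest muscle marker mean of its group (10.47), and the part of muscle in this value was not tested.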

How the results depend on the processing

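The number of the 7 tested adipokine genes called kept its main value or stayed within 1.5 times of it except as follows. Between TZP and Vehicle (1 in the main fit) it was 0 with the value of 1 read as covariate, 2 after correction for transcript length and 2 without the 3 libraries lowest in muscle, and 0 to 2 when a replicate was left out. Between LAGIPRA and Vehicle (0 in the main fit) it was 1 with only the 2 groups compared, 2 with array weights, 1 after correction for length and 2 with the length slope as covariate. Leaving out replicates gave 3 to 4 between PairFedVehicle and Vehicle, 3 to 4 between LAGIPRA and PairFedVehicle, 3 between TZP and PairFedVehicle and 0 for LAGIPRA against Vehicle and TZP against LAGIPRA. With the replicate block the counts were 1, 0, 4, 3, 3 and 0, as without it. Same-numbered samples deviated together in 12 of 36 pairs (r over 0.1, range -0.602 to 0.378), the LAGIPRA and Vehicle pairs holding 5 of these, with -0.0445 for number 6. No pair of groups had all 6 over 0.1, so the numbers were not taken to pair the samples. Reversed values among the adipokine genes were all of uncalled ones. Among the 91 pathway calls, 5 reversed in some setting, and these were of 4 genes. Reversals of uncalled pathway genes were not counted, and the cause of any reversal was not tested. For TZP against Vehicle, Adipoq turned to -0.0123 with array weights, -0.1099 with the value of 1 read, -0.0792 after length correction and -0.0663 with the pan-adipocyte covariate. Retn turned to -0.0926 after length correction and -0.1645 with the pan-adipocyte covariate, and Rbp4 to 0.0105 with TZP 1 and 2 alone, 0.1295 without the 3 low-muscle libraries and 0.0025 with the pan-adipocyte covariate. For LAGIPRA against Vehicle, Retn turned to 0.0164 with the length slope and Cfd to -0.1837 with the pan-adipocyte covariate. For PairFedVehicle against Vehicle, Retn turned to 0.0375 without the 3 libraries and Nampt to -0.082 with the pan-adipocyte covariate. For TZP against PairFedVehicle, Adipoq turned to 0.0262 with TZP 1 and 2 alone and Retn to -0.0074 without the 3 libraries. For LAGIPRA against PairFedVehicle, Adipoq turned to -0.073 with the value of 1 read and -0.0139 without the 3 libraries, and Retn to -0.0819 without them. For TZP against LAGIPRA, Adipoq turned to 0.0063 with TZP 1 and 2 alone, Retn to -0.0216 after length correction, and Nampt to 0.0069 with the value of 1 read, 0.05 after length correction, 0.2836 with the length slope, 0.4003 with TZP 1 and 2 alone, 0.0483 without the 3 libraries and 0.0955 with the pan-adipocyte covariate. With a replicate left out, TZP against Vehicle ran from -0.0334 to 0.0832 for Adipoq, -0.0696 to 0.1247 for Retn and -0.1211 to 0.0764 for Rbp4. LAGIPRA against Vehicle ran from -0.183 to 0.0614 for Retn, and PairFedVehicle against Vehicle from -0.2439 to 0.0493. TZP against PairFedVehicle ran from -0.0186 to 0.2746 for Retn. LAGIPRA against PairFedVehicle ran from -0.0139 to 0.0621 for Adipoq and -0.0819 to 0.2113 for Retn. TZP against LAGIPRA ran from -0.0184 to 0.2137 for Retn and -0.1118 to 0.078 for Nampt. Of the pathway calls in TZP against Vehicle, Mme turned to 0.1591, Hif1a to 0.0548 and Prdm16 to 0.2729 with the length slope. Prdm16 also turned to 0.2415 with TZP 1 and 2 alone. In TZP against PairFedVehicle with TZP 1 and 2 alone, Adipor2 turned to 0.0012 and Prdm16 to 0.2608.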
